A study of Mus musculus with 4 samples.

Results

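The SOX family of transcription factors was followed in the *Prdm13* lineage of the mouse neural tube through 10 genes of 5 subgroups. These were *Sox1*, *Sox2* and *Sox3* (SOXB1), *Sox14* and *Sox21* (SOXB2), *Sox4* and *Sox11* (SOXC), *Sox5* and *Sox6* (SOXD) and *Sox9* (SOXE). They were taken by gene symbol from an expression table of 24421 genes, and all 10 were found. The RNA came from GFP+ cells sorted from neural tubes at E11.5 (E for embryonic day), either from Prdm13GFP/+ heterozygotes or from Prdm13GFP/GFP homozygotes, with 2 libraries each. The Prdm13GFP allele is a knock-in of GFP that disrupts *Prdm13*, which encodes a transcriptional repressor of the dorsal neural tube, so the comparison asks how transcript levels differ with and without PRDM13. Both genotypes carry the disrupted allele, and the heterozygous controls keep 1 intact copy and are not wild type. GFP comes from the *Prdm13* locus, so the sort takes cells in which that locus is or has recently been active. Within each genotype the RNA of several embryos was combined into 1 pool and both libraries were made from it. The libraries are thus technical replicates, and each p-value measures only the spread between libraries and none of the spread between embryos. Reads counted on the genes came to 12485300 and 19850169 (heterozygous) and 17700722 and 14972229 (homozygous), as recovered from the steps between the deposited values. Reads not assigned to a gene are not in these totals.

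SOX proteins bind DNA through a high mobility group (HMG) box and act with partner factors, many of them of the POU family. In the neural tube, SOXB1 factors keep cells in a progenitor state, the SOXB2 factor SOX21 counteracts them and allows differentiation, and SOXC factors switch on genes common to neurons in cells that leave the cell cycle. SOXE and SOXD factors are known for the start of gliogenesis and, outside the nervous system, for cartilage.

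The members of SOXB1, and those of SOXD, did not all move in the same direction. Within SOXB1, *Sox1* and *Sox2* fell and *Sox3* rose in Prdm13GFP/GFP cells. Within SOXD, *Sox6* fell and *Sox5* rose. *Sox11* of SOXC rose, *Sox21* of SOXB2 fell, and *Sox4* and *Sox9* did not pass the test. Of these changes, those of *Sox5*, *Sox11* and *Sox21* needed all 4 libraries to pass, while *Sox1*, *Sox2* and *Sox6* passed whichever library was left out. A fit without 1 library has 1 library in one genotype and takes its spread from the other. In those fits the log2 changes of *Sox5* (0.33 to 0.44), *Sox11* (0.19 to 0.26) and *Sox21* (-0.44 to -0.29) kept their direction. A gene is said to have risen or fallen here at an adjusted p under 0.05 in limma, and to be called where its fold change was also at least 1.5. Values are RPKM (reads scaled to exon length and to library size), a level per length that allows genes to be compared, and changes are log2 fold changes of RPKM + 0.1, homozygous against heterozygous, ± the standard error.

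Of the 10 members, 9 were tested, since their mean in one genotype or the other reached 1 RPKM. With the fold threshold, 2 were called lower (*Sox1* and *Sox6*) and 0 higher, against 2.67% of the 12046 genes tested called lower and 3.65% called higher. On the adjusted p alone, 4 fell (*Sox1*, *Sox2*, *Sox6* and *Sox21*) and 3 rose (*Sox3*, *Sox5* and *Sox11*), against 9.95% and 9.76% of all genes. Of the count of 0 called higher, 3 members were higher at an unadjusted p under 0.05 in limma, and limma voom on recovered reads also called 0. The libraries of the genotypes did not overlap for 5 members that were lower and 3 that were higher in homozygous cells, which 30.3% and 31.7% of all genes tested also showed. The median log2 fold change was -0.21 over the 9 members and 0.0104 over all genes tested. In bulk RNA from sorted cells, fewer cells that express a gene and less RNA of that gene per cell cannot be told apart, and this holds for every value below.

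The sequences at the starts of genes from both directions of change are shown, so that the bases around the starts can be read beside the values. They are RefSeq sequences on GRCm38.p6, from a promoter table that holds 8 of the 10 members (*Sox3* and *Sox9* have no entry in it) and 6 starts of *Sox6*. The windows searched ran from 250 bases before to 50 after each start, on both strands, for the POU octamer ATGCAAAT, the SOX core letters ACAAAG and ACAATG, and the E-box CANNTG bound by bHLH factors. Capitals mark matches. The *Sox1* stretch is chr8:12395527-12395554 on the plus strand and lies just after the start, the *Sox2* stretch is chr3:34649745-34649995 on the plus strand, and the *Sox11* stretch is chr12:27342719-27342968 on the minus strand, the *Sox2* stretch ending at the start base and the *Sox11* stretch 1 base before it.
Sox1: ccagcgcgccATGCAAATcaccgccgcc
Sox2: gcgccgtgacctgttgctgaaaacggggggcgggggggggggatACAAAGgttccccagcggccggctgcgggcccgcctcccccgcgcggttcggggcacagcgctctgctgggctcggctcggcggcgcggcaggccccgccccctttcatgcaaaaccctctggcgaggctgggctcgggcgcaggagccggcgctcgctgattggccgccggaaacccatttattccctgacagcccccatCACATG
Sox11: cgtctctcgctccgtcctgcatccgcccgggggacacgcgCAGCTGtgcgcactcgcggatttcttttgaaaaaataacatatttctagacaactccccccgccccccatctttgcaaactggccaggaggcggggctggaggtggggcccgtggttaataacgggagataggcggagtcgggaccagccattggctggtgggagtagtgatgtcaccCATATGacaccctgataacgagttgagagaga
The octamer of *Sox1* begins at position 19 of the transcript, and 1.74% of the 32851 promoters in the RefSeq table hold these letters. *Sox2* holds ACAAAG from position -206, as do 18.7% of all promoters in either orientation and 5 of the 6 starts of *Sox6*, and the E-box CACATG from position -5. *Sox11* holds the E-boxes CAGCTG from -210 and CATATG from -32, and 72.3% of all promoters hold an E-box. *Sox4*, the other SOXC member, has CAGCTG from -211, and *Sox21* has none of the letters searched. ACAATG, found in 12.6% of all promoters, was at the listed start of *Sox5* and at 2 of the 6 starts of *Sox6*. The window of that *Sox5* start (chr6:143947057-143947356, minus strand) lies inside the gene's span of 143828425 to 144782287, away from its upstream end. The expression table does not say which start of *Sox5* or of *Sox6* was in use.

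In the heterozygous libraries *Sox4* and *Sox11* were the most abundant of the 10 members. The order of mean levels ran from *Sox4* (213.6 RPKM) and *Sox11* (181.8 RPKM) through *Sox2* (156.4 RPKM), *Sox3* (62.6 RPKM), *Sox9* (54.48 RPKM), *Sox21* (24.74 RPKM), *Sox1* (14.59 RPKM) and *Sox6* (13.01 RPKM) to *Sox5* (2.798 RPKM). Neighbours in this order did not overlap between their 2 libraries, although the 2 libraries cannot show more than that. In homozygous cells the order was the same except that *Sox11* stood above *Sox4*.

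**Figure D1:**
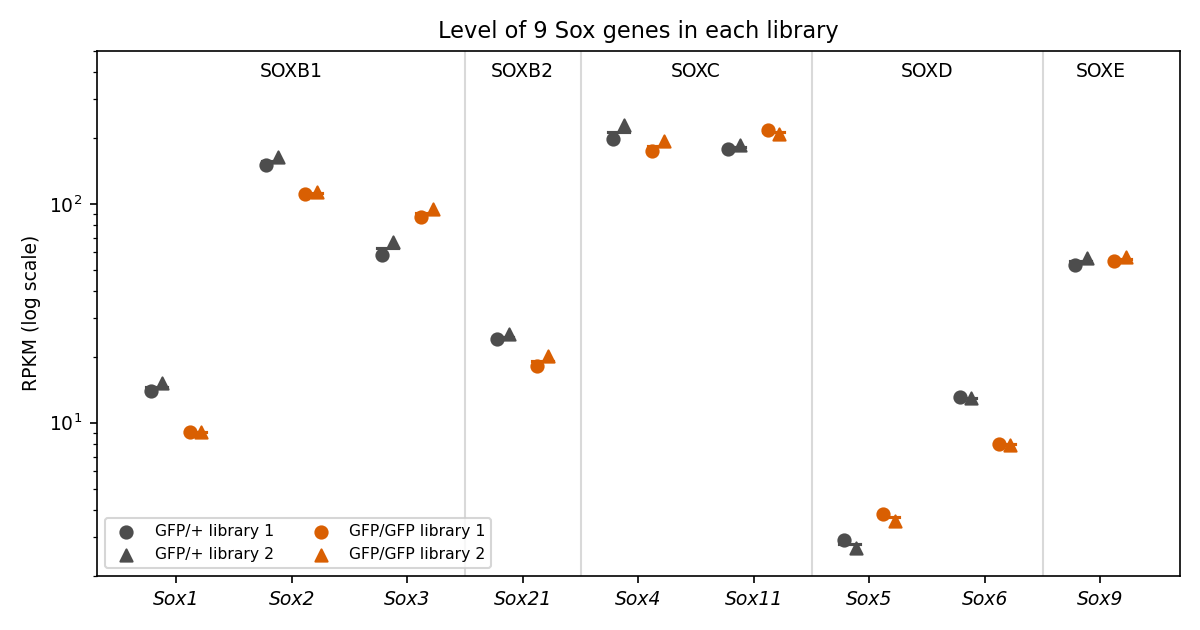
RPKM on a log scale of 9 members in each library, grouped by SOX subgroup, with heterozygous (GFP/+) libraries in grey, homozygous (GFP/GFP) libraries in orange and short lines at the mean of each genotype. *Sox9* is the only one of the 9 whose libraries overlap between genotypes, and *Sox14*, at or near 0, is left out.

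*Sox2* (gene ID 20674; chromosome 3, 34649995 to 34652461), the SOXB1 factor that marks neural progenitors throughout the neural tube, was at 149.8 and 163.1 RPKM in heterozygous and 110.8 and 113.5 RPKM in homozygous libraries. Both homozygous libraries were lower than both heterozygous ones, and between 3812 and 7341 reads stood behind each value. The level fell by 0.48 ± 0.0540 on the log2 scale (adjusted p = 0.00214), a 1.395-fold difference that is under the fold threshold. *Sox1* (gene ID 20664; chromosome 8, 12395519 to 12399555), a SOXB1 factor of progenitors that appears as the neural plate forms, was at 13.98 and 15.21 RPKM in heterozygous and 9.019 and 9.055 RPKM in homozygous libraries. Again the genotypes did not overlap. *Sox1* fell by 0.68 ± 0.0659 on the log2 scale (adjusted p = 0.00118) and was called lower, 1.615-fold below the heterozygous mean.

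*Sox3* (gene ID 20675; X chromosome, 60891366 to 60893430), the X-linked SOXB1 gene, went the other way. It was at 58.12 and 67.08 RPKM in heterozygous and 87.24 and 94.81 RPKM in homozygous libraries, so that every homozygous library was above both heterozygous ones. *Sox3* rose by 0.54 ± 0.0786 on the log2 scale (adjusted p = 0.00556), 1.454-fold and so just short of the fold threshold. It passed the fold threshold when heterozygous library 2 (log2 0.65) or homozygous library 1 (log2 0.60) was left out, and it no longer passed the adjusted p when homozygous library 2 was left out (log2 0.48, adjusted p = 0.0788).

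Since *Sox3* is on the X chromosome, transcripts that differ between the sexes were read beside it. *Xist*, the RNA made from the inactive X of female cells, was at 22.42 and 21.6 RPKM in heterozygous and 6.546 and 6.026 RPKM in homozygous libraries, lower by 1.79 on the log2 scale (adjusted p = 2.03e-05). The Y-linked *Eif2s3y* was at 19.08 and 17.75 RPKM against 27.82 and 28.11 RPKM, higher by 0.60 on the log2 scale (adjusted p = 0.00114). *Kdm5d* also rose (log2 0.45, adjusted p = 0.00496), while *Ddx3y* (log2 0.14, adjusted p = 0.176) and *Uty* (log2 0.20, adjusted p = 0.215) did not pass the test. The sex of the embryos was not measured, and the part of a difference in sex makeup between the pools in the level of *Sox3* or of any other member was not tested.

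Summed over the SOXB1 genes, the level differed less than that of its members. The sum was 221.9 and 245.4 RPKM in heterozygous and 207.1 and 217.3 RPKM in homozygous libraries, 233.6 ± 16.6 against 212.2 ± 7.24 RPKM (SD, n = 2), a log2 ratio of -0.14 (exact permutation p = 0.333). The ratio was -0.06 without heterozygous library 2 and -0.21 without heterozygous library 1. A p of 0.333 is the smallest that 2 libraries against 2 allow, and it was 0.377 after adjustment over the 17 sums, shares and ratios of this kind. The makeup of the sum changed more. *Sox3* made up 26.2% and 27.33% of the SOXB1 total in heterozygous and 42.12% and 43.62% in homozygous libraries, and the share of *Sox2* went from 67.5% and 66.47% to 53.52% and 52.21%. The ratio of *Sox3* to *Sox2* was 0.388 and 0.411 in heterozygous and 0.787 and 0.836 in homozygous libraries, a log2 difference of 1.02. *Sox2* and *Sox1*, which fell together, kept closer to each other, at ratios of 10.7 in both heterozygous libraries and 12.3 and 12.5 in the homozygous ones. For these shares and ratios the exact permutation p was again 0.333, the smallest possible.

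**Figure D2:**
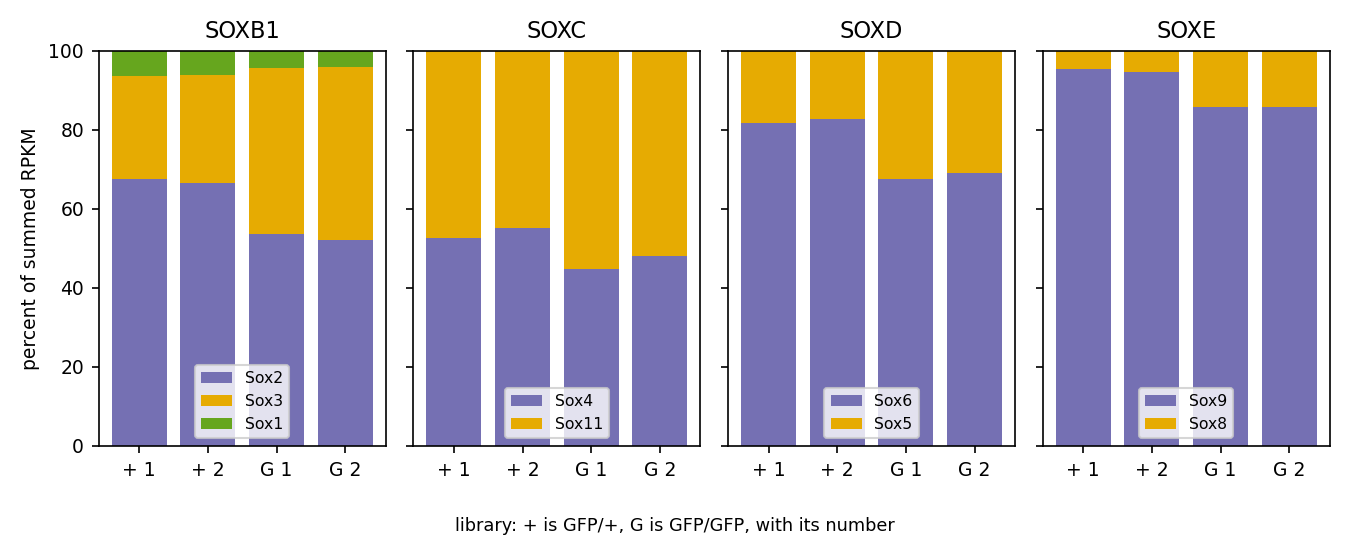
Percent of the summed RPKM that each gene takes among the members of SOXB1, SOXC and SOXD (without *Sox12* and *Sox13*) and between *Sox8* and *Sox9* of SOXE, as stacked bars for the heterozygous (+) and homozygous (G) libraries 1 and 2. *Sox3* takes 26.2% and 27.33% of SOXB1 in the heterozygous and 42.12% and 43.62% in the homozygous libraries, and *Sox5*, *Sox8* and *Sox11* also take larger shares in both homozygous libraries.

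*Sox21* (gene ID 223227; chromosome 14, 118233233 to 118237030), the SOXB2 repressor that counteracts SOXB1 activity, was at 24.03 and 25.44 RPKM in heterozygous and 18.22 and 20.2 RPKM in homozygous libraries. The genotypes did not overlap, and the gene fell by 0.36 ± 0.0685 on the log2 scale (adjusted p = 0.0142). It did not pass the adjusted p when any 1 library was left out, although the log2 difference then ran from -0.44 to -0.29. Such fits have 1 library in one genotype and take their spread from the other. In direction it moved with *Sox1* and *Sox2* and not with *Sox3*. *Sox14* (gene ID 20669; chromosome 9, 99874106 to 99876170), a SOXB2 gene of ventral and some other interneurons, was listed at 0 in library 1 of each genotype, and 5 (heterozygous) and 2 (homozygous) reads lay behind the values of 0.1321 and 0.07081 RPKM in library 2. It was not tested, and at this depth no difference in *Sox14* could be detected. The 8 listed genes of the ventral V2 domain, in which *Sox14* is expressed, were likewise all under 1 RPKM in both genotypes and summed to 1.141 and 1.096 RPKM.

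*Sox11* (gene ID 20666; chromosome 12, 27334268 to 27342718), a SOXC activator of genes common to neurons, was at 177.7 and 185.9 RPKM in heterozygous and 216.4 and 208.6 RPKM in homozygous libraries. Both homozygous libraries were above both heterozygous ones. It rose by 0.23 ± 0.0461 on the log2 scale (adjusted p = 0.0190), with 17378 to 29728 reads per library. It did not pass when any 1 library was left out (log2 0.19 to 0.26) or after quantile normalization (log2 0.13, adjusted p = 0.106). *Sox4* (gene ID 20677; chromosome 13, 28948919 to 28953699), the SOXC factor with overlapping roles, was at 198.2 and 228.9 RPKM in heterozygous and 174.7 and 193.2 RPKM in homozygous libraries. Its libraries lay apart by little, and the log2 difference of -0.21 ± 0.0803 did not pass the test (adjusted p = 0.116, 95% interval -0.41 to -0.02 before adjustment). With 1 library left out in turn, the log2 difference of *Sox4* ran from -0.32 to -0.11. Its adjusted p was 0.00685 with voom on recovered reads, 0.0475 after quantile normalization and 0.0075 with a block for replicate number. *Sox11* and *Sox4* together summed to 395.4 ± 27.5 and 396.4 ± 7.55 RPKM (SD, n = 2; exact permutation p = 1.0), a log2 ratio that ran from -0.07 to 0.08 with 1 library left out, while the share of *Sox11* in that sum was 47.27% and 44.83% in heterozygous and 55.32% and 51.92% in homozygous libraries.

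*Sox12*, the remaining SOXC gene and the weakest activator of that subgroup, was at 40.21 and 44.95 RPKM in heterozygous and 42.52 and 45.05 RPKM in homozygous libraries. The values overlapped (log2 0.04, adjusted p = 0.704).

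*Sox6* (gene ID 20679; chromosome 7, 115470872 to 116040776), a SOXD factor without an activation domain of its own, was at 13.05 and 12.98 RPKM in heterozygous and 8.028 and 7.926 RPKM in homozygous libraries. The libraries of a genotype nearly coincided and the genotypes lay well apart. *Sox6* fell by 0.70 ± 0.0588 on the log2 scale (adjusted p = 0.000624) and was called lower, 1.631-fold below the heterozygous mean. *Sox5* (gene ID 20678; chromosome 6, 143828425 to 144782287), which pairs with SOX6 in cartilage and in oligodendrocyte precursors, was at 2.91 and 2.686 RPKM in heterozygous and 3.841 and 3.549 RPKM in homozygous libraries. All homozygous values were the higher ones, and it rose by 0.39 ± 0.106 on the log2 scale with an adjusted p of 0.0473, close to the threshold. It passed in none of the fits that left out 1 library, where the log2 change ran from 0.33 to 0.44. With *Sox6* lower and *Sox5* higher, the ratio of *Sox5* to *Sox6* was 0.223 and 0.207 in heterozygous and 0.478 and 0.448 in homozygous libraries, a log2 difference of 1.11 (exact permutation p = 0.333, the smallest possible). The summed level was 15.81 ± 0.211 against 11.67 ± 0.279 RPKM (SD, n = 2), a log2 ratio of -0.44 for this pair of genes.

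*Sox13*, the third SOXD gene, was at 15.66 and 17.14 RPKM in heterozygous and 22.42 and 24.29 RPKM in homozygous libraries, and was the most abundant SOXD gene in both genotypes. It rose by 0.51 ± 0.0700 on the log2 scale (adjusted p = 0.0047), though it did not pass when homozygous library 2 was left out (log2 0.45). With *Sox13* included, the SOXD sum turned direction, from 31.62 and 32.8 RPKM in heterozygous to 34.29 and 35.76 RPKM in homozygous libraries (log2 ratio 0.12). *Sox6* was thus the one SOXD gene of the 3 that fell.

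*Sox9* (gene ID 20682; chromosome 11, 112782210 to 112787757), the SOXE factor needed for neural progenitors to start making glia, was at 52.65 and 56.31 RPKM in heterozygous and 54.96 and 57.36 RPKM in homozygous libraries. It was the one tested member whose libraries overlapped. The log2 difference was 0.04 ± 0.0545 (adjusted p = 0.609), with a 95% interval from -0.09 to 0.17. Measured against *Sox9*, *Sox2* went from ratios of 2.84 and 2.9 to ratios of 2.02 and 1.98.

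*Sox8*, the SOXE gene closest to *Sox9* and *Sox10*, was at 2.622 and 3.13 RPKM in heterozygous and 9.044 and 9.483 RPKM in homozygous libraries. It rose by 1.66 ± 0.103 on the log2 scale (adjusted p = 0.000178), a 3.221-fold change, and was the Sox gene with the largest fold change of the 13 tested. It passed whichever library was left out. Its share of the *Sox8* and *Sox9* sum was 4.744% and 5.266% in heterozygous and 14.13% and 14.19% in homozygous libraries. *Sox10*, the SOXE gene of neural crest and of oligodendrocytes, was at 0.2548 and 0.6035 RPKM in heterozygous and 0.6801 and 0.7815 RPKM in homozygous libraries and was not tested.

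Since SOXE genes also mark neural crest, 3 markers of that lineage were read beside *Sox8* (*Sox10*, *Erbb3* and *Cdh19*), which are only part of the marker list, the rest not being reported here. They summed to 0.3623 and 0.6849 RPKM in heterozygous and 0.7566 and 0.8906 RPKM in homozygous libraries, with *Sox10* the most abundant (mean 0.58 RPKM) and none of them high enough to be tested. *Cdh19* was listed at 0 in all libraries. The part of neural crest cells in the level of *Sox8* was not tested.

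**Figure D3:**
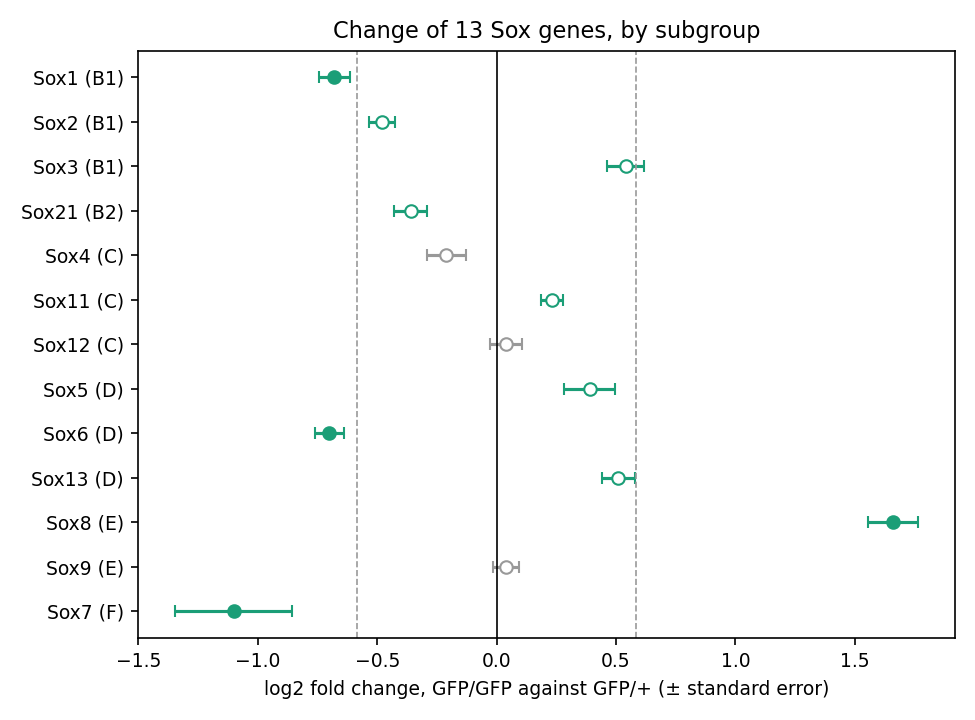
Log2 fold change of the 13 tested Sox genes, homozygous against heterozygous, with standard errors as bars and the subgroup in brackets. Filled green points passed the adjusted p and the 1.5-fold threshold (dashed lines), open green points the adjusted p alone, and grey points did not pass. SOXB1, SOXD and SOXC hold genes on both sides of 0.

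Outside the 5 subgroups the family was close to silent. *Sox7*, a SOXF gene of endothelium, was at 1.561 and 1.487 RPKM in heterozygous and 0.7721 and 0.5596 RPKM in homozygous libraries. It was called lower (log2 -1.10 ± 0.245, adjusted p = 0.025) on 25 to 89 reads per library. The call was lost without heterozygous library 1 (log2 -1.07), heterozygous library 2 (log2 -1.13) or homozygous library 2 (log2 -0.90). It was also lost without a filter on RPKM (log2 -1.10, adjusted p = 0.187) and by limma's treat test against a fold of 1.5. The 7 endothelial markers summed to 2.743 and 3.639 RPKM in heterozygous and 3.518 and 4.055 RPKM in homozygous libraries, which overlap. *Cldn5* was the most abundant of them at 0.8764 RPKM, it was the only one tested, and it did not pass (adjusted p = 0.34). The part of endothelial cells in the level of *Sox7* was not tested. The other SOXF genes *Sox17* and *Sox18*, and *Sox15* and *Sox30*, stayed below 1 RPKM in every library, and *Sry* was listed at 0.

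Noncoding genes lie over the loci of *Sox1* and *Sox2*. *Sox2ot* (chromosome 3, 34560381 to 34677993) is a long noncoding RNA gene whose span contains *Sox2*. It was at 11.93 and 11.21 RPKM in heterozygous and 5.695 and 5.908 RPKM in homozygous libraries. It fell by 0.98 ± 0.0687 on the log2 scale (adjusted p = 0.00029) and was called lower, so both genes of the locus fell. How reads in their overlap were assigned is not given in the sources used here, and the separate levels are to that extent uncertain. *Gm5607*, whose span contains *Sox1*, was under 1 RPKM in every library, with 42 to 88 reads, and was not tested.

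*Prdm13* itself was at 113.9 and 126.8 RPKM in heterozygous and 309.5 and 324.5 RPKM in homozygous libraries, higher by 1.40 ± 0.0613 on the log2 scale (adjusted p = 3.63e-05). Reads from the disrupted allele count towards the gene, so this level does not check the genotype.

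By the shape of their profile over the 4 libraries, the genes nearest to *Sox1* among 6895 with a mean RPKM of at least 10 were *Slc1a4*, *Prox1* and *Mab21l1*, at distances of 0.0434, 0.0754 and 0.0762 between mean-centred log2 profiles. For *Sox6* they were *Rapgef5*, *Prox1* and *Msx2*, at 0.0261, 0.0446 and 0.0468. *Prox1*, which encodes a homeodomain factor of cells leaving the cycle, was near both, with means of 19.96 RPKM in heterozygous and 12.07 RPKM in homozygous libraries. With 4 libraries in pairs, such nearness says little more than that the genes changed by a like amount.

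Genes that accompany SOXB1 factors in neural progenitors moved both ways. Of 12 listed, 6 rose and 2 fell on the adjusted p and 0 were called either way in limma or in voom, with a median log2 fold change of 0.17. At an unadjusted p under 0.05, 7 were higher and 2 lower, and the share of all genes at that p is not given here. Among all genes tested, 9.76% rose and 9.95% fell on the adjusted p, and 3.65% were called higher and 2.67% lower. These shares stand beside the counts of this list and of each list below. *Hes5*, a Notch effector that holds progenitors undifferentiated, was at 115.1 and 136.5 RPKM against 159.1 and 176.7 RPKM (log2 0.42, adjusted p = 0.0218). *Hes1*, its relative, fell from 43.06 and 47.73 RPKM to 36.92 and 37.34 RPKM (log2 -0.29, adjusted p = 0.0221), and *Zfp36l1* was the other that fell (log2 -0.56). The abundant *Vim*, *Nes*, *Fabp7* and *Msi1*, which encode 2 intermediate filaments, a lipid carrier and an RNA-binding protein of radial progenitors, lay within 0.10 log2 units of no change and did not pass the test. Of 12 proliferation genes, 5 fell (*Mki67*, *Top2a*, *Ccnb1*, *Ccna2* and *Mcm3*), 0 rose and 0 were called in limma or in voom, with a median of -0.13, and 8 were lower and 0 higher at an unadjusted p under 0.05. *Mki67*, made in cycling cells, was at 55.06 and 52.13 RPKM in heterozygous and 36.96 and 35.79 RPKM in homozygous libraries (log2 -0.56, adjusted p = 0.00101). The part of these values in the levels of *Sox1* and *Sox2* was not tested.

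Among 13 partner factors of SOX proteins, 4 rose, 2 fell and 1 was called (2 in voom, with *Pou3f4*), with a median log2 fold change of 0.05. The called gene was *Pou3f1*, a POU factor, at 7.751 and 9.755 RPKM in heterozygous and 24.6 and 26.81 RPKM in homozygous libraries (log2 1.55, adjusted p = 0.000322). Its relative *Pou3f2*, a partner of SOX2 and SOX11 in neural cells, rose by 0.23 on the log2 scale (adjusted p = 0.0302), *Pou3f3* did not pass (log2 0.05) and *Pou3f4* fell by 0.58 on the log2 scale (adjusted p = 0.00205). POU partners thus moved in both directions. The others that passed were *Tle1* (log2 0.55), *Tcf7l1* (log2 0.40) and *Tcf7l2* (log2 -0.40).

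Of 13 listed genes of the SOXC program, which are pan-neuronal genes and the Hippo pathway factor *Tead2* (log2 0.22, among those that rose), 8 rose and 1 fell, and 4 were called higher and 1 lower (median log2 0.22). Over all genes tested, 9.76% rose and 9.95% fell, and 3.65% were called higher and 2.67% lower. *Tubb3*, neuronal beta-tubulin, was at 1017 and 1062 RPKM in heterozygous and 1265 and 1372 RPKM in homozygous libraries (log2 0.34, adjusted p = 0.00688). The called genes were *Nefl* (log2 1.51), *Nefm* (log2 1.21), *Gap43* (log2 1.20) and *Stmn2* (log2 0.61), which encode neurofilaments and proteins of growing axons, and *Snap25* (log2 -0.63), which encodes a synaptic fusion protein and went the other way. The size of each of these 5 changes was larger than that of *Sox11* (log2 0.23). *Ntrk3* (log2 0.93), which marks sensory neurons of the dorsal root ganglion, was also called higher in homozygous cells, at 3.293 and 3.652 RPKM in heterozygous and 6.603 and 6.773 RPKM in homozygous libraries. Of the other markers of those neurons that are given here, *Ntrk2* fell (log2 -0.46), and *Prph* and *Avil* were under 1 RPKM in all libraries. Their part in the pan-neuronal and SOXC values was not tested.

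Of 16 genes of the glial program that SOXE and SOXD factors share, 8 were tested, and 4 rose and 3 fell. *Slc1a3*, the glial glutamate transporter GLAST, was at 2.568 and 2.816 RPKM in heterozygous and 12.42 and 11.44 RPKM in homozygous libraries (log2 2.11, adjusted p = 2.77e-05). *Olig2*, known for motor neurons and oligodendrocytes, was at 0 and 0.02239 RPKM in heterozygous and 17.04 and 21.27 RPKM in homozygous libraries, with 0 and 1 reads behind the heterozygous values, and *Olig1* was called higher as well. *Nfix* was called lower (log2 -0.89, adjusted p = 0.0253), and *Nfib* (log2 -0.52) and *Ntrk2* (log2 -0.46) fell without being called. *Gfap*, *Aqp4*, *S100b* and *Hepacam*, which mark mature glia, were near 0 in all libraries. Of 9 cartilage targets of SOX9, SOX5 and SOX6, 4 were tested and 0 passed the adjusted p in limma, at an adjusted p of 0.0545 or more, with 1 higher and 1 lower at an unadjusted p under 0.05 and 0 called in voom. On the adjusted p alone, *Col11a1* was the only one of them to pass in voom (log2 -0.36, adjusted p = 0.00263). *Col2a1*, the most abundant of them, was at 39.17 and 43.36 RPKM in heterozygous and 37.35 and 38.33 RPKM in homozygous libraries (log2 -0.12, adjusted p = 0.218).

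**Figure D4:**
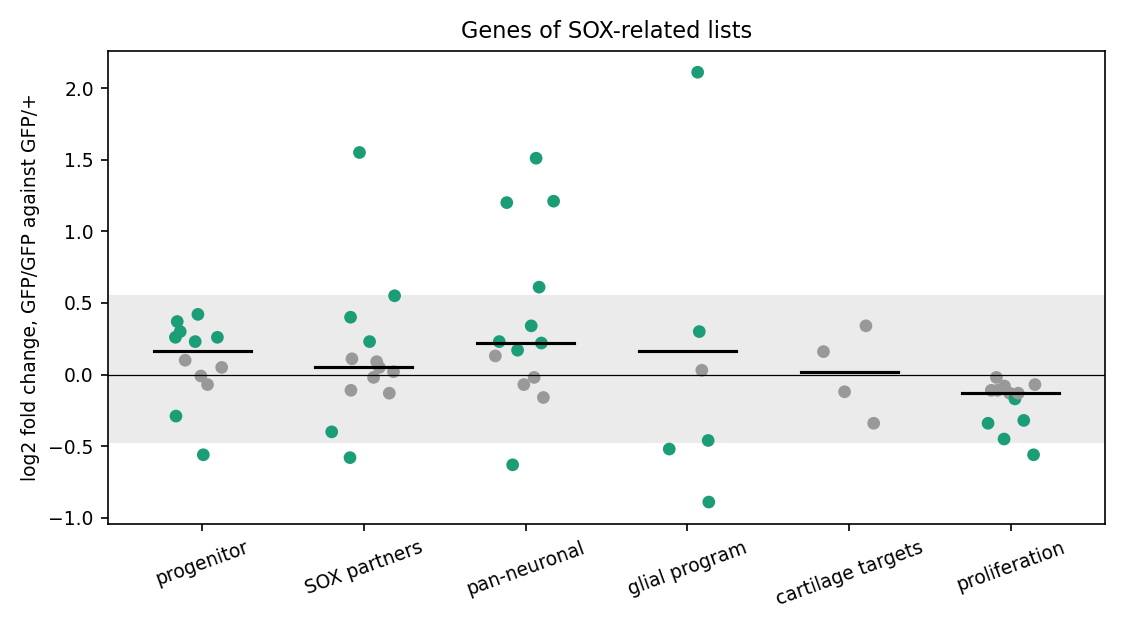
Log2 fold change, homozygous against heterozygous, of the tested genes of 6 lists, with green points for genes past the adjusted p, grey points for the rest, black lines at the list medians and a grey band for the middle 90% of all genes tested. Progenitor, partner and glial genes lie on both sides of 0, and no proliferation gene lies above it. *Olig1* and *Olig2*, with 3 heterozygous reads or fewer, are counted in the median but not drawn.

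Of the 9 genes that set cell identity in this lineage, 6 fell and 2 rose. *Tlx3* (log2 4.11) and *Ptf1a* (log2 1.81) rose, and *Pax2* (log2 -2.62) had the largest fall. Each of these changes was larger than that of any of the 9 tested Sox members. The 6 listed markers of the neural tube lineage summed to 1542 and 1616 RPKM in heterozygous and 1770 and 1897 RPKM in homozygous libraries, most of it *Tubb3*, which neurons of other origin also express. *Pax3*, a factor of dorsal neural tube progenitors, was at 73.97 and 75.22 RPKM in heterozygous and 69.9 and 70.05 RPKM in homozygous libraries. Mesenchyme markers summed to 4.882 and 5.317 RPKM against 4.026 and 4.076 RPKM, with *Col1a2* the most abundant. Erythroid markers summed to 40.55 and 42.95 RPKM against 43.96 and 42.58 RPKM, nearly all of it *Hbb-y* and *Hba-x*, while the adult globins were listed at 0. In neither list did a tested gene pass in limma, also at an unadjusted p, or in voom.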

How the data were processed

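RNA-seq was made by the authors from poly(A) RNA of FACS-sorted cells, with an mRNA-Seq kit of Illumina by the study's methods. Per the labels and the study's methods, reads were aligned with TopHat2 2.1.0 to mm10, counted on exons of RefSeq genes with featureCounts and normalized by TMM in edgeR 3.6.8, and the authors deposited RPKM values for 4 libraries. Strand handling in counting is not given in the sources used here. ChIP-seq was not analysed here.

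Values entered the test as log2(RPKM + 0.1), for the 12046 genes that averaged 1 RPKM or more in one or both genotypes. This scale understates changes of low genes. The test was limma 3.58.1 (lmFit, eBayes with a trend, two-sided, no replicate block) in R 4.3.3, with Benjamini-Hochberg adjustment over all of them. A call took an adjusted p below 0.05 together with a 1.5-fold difference or more. Sums, shares and ratios were compared by exact permutation over libraries (two-sided). Genes of lists were named by abundance or by being called, and others, which passed the adjusted p alone, were picked once their values had been seen. The results of 4 marker genes are left out of the text and of the marker lists, so the lists of neural crest and dorsal root ganglion markers are given only in part. The members and lists were chosen with earlier results of these data known.

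Whole reads were recovered from the RPKM steps for 99.99% of the 19200 genes above 0, within 0.002 reads plus 4e-07 per read. For some genes, *Sox4* and *Sox2ot* among them, they are known only up to a common factor, so the library totals are approximate. On simulated RPKM values the test called 200 of 200 changed and 17 unchanged genes among 12254. The folds used there are not given here. How well the test finds folds as small as those of the Sox members was not tested. Python 3.11.15, numpy 2.4.6, pandas 2.3.3, scipy 1.17.1 and matplotlib 3.10.9 were used.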

Additional observations from a re-analysis of the deposited data

How the results depend on the processing

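Of 224 fold changes of 14 genes (13 Sox genes and *Prdm13*) under 16 alternatives, 204 kept their direction and their side of the call (adjusted p with fold), 10 lost a call, 8 gained one and 2 changed sign. Of the 8, 6 came from the adjusted p alone, which drops the fold from the call, and the other 2 were *Sox3* with a library left out. Both sign changes came without heterozygous library 1, for *Sox9* (-0.0042, and up to 0.09 with each library left out in turn) and *Sox12* (-0.04, up to 0.12), neither of which was past the test. Of the 7 members past the adjusted p alone, 7 remained past it with either pseudocount, the stricter filter, median ratio scaling, voom and the minimum of 20 reads, 5 after quantile normalization (without *Sox11* and *Sox5*, adjusted p = 0.0648, while *Sox4* came to pass, log2 -0.29, adjusted p = 0.0475), 5 without a trend (without *Sox21*, adjusted p = 0.0542, and *Sox11*, adjusted p = 0.0809), 3 to 4 with a library left out and 1 without a filter (*Sox6*, while *Sox2* had an adjusted p of 0.108 and *Sox3* of 0.18). The Sox members called higher (0) were 3 on the adjusted p alone and 0 to 1 when each library was left out in turn, the 1 being *Sox3*. Those called lower (2) were 1 without a filter on RPKM, where *Sox1* had an adjusted p of 0.0698, 0 by limma's treat test against a fold of 1.5, 4 on the adjusted p alone, and 2 whichever library was left out. Over all genes, 440 called higher became 30 without a filter, 131 by treat, 1176 on the adjusted p alone and 258 to 437 with a library left out. The 322 called lower became 14, 77, 1199 and 212 to 266 under the same settings. Treat asks for a fold beyond 1.5 by its construction, and the cause of the losses without a filter was not tested. The calls of *Sox7* (adjusted p = 0.187), *Sox8* (adjusted p = 0.0619) and *Prdm13* (adjusted p = 0.0619) were also lost without the filter. The SOXC sum had a log2 ratio of 0.0, and -0.09 after quantile normalization. With every Sox gene of a subgroup in the sum, chosen after seeing the data, the log2 ratio of SOXD was 0.12 in place of -0.44 and that of SOXE 0.20 in place of 0.04. A minimum of 20 reads in a library, chosen after seeing the data, gave 437 and 331 genes.

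Across all genes tested, same-numbered libraries showed little pairing, with a correlation of 0.0475 between their deviations. The tested Sox members differed from this. For each of them except *Sox11*, library 1 lay on the same side of library 2 in both genotypes. With the replicate block 459 genes were called higher and 342 lower, with 0 and 2 Sox members, and no call of a Sox gene changed. With the block, the adjusted p in limma was lower for each tested member. It was 0.0075 for *Sox4* (0.116 without the block) and 0.000365 for *Sox3* (0.00556 without it).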
